A study of Mus musculus with 8 samples.

Results

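The transcripts described here encode 6 receptors that lymphocytes use to enter, move within and leave lymph nodes: Ccr7, S1pr1, S1pr4, Gpr183, Cd44 and Selplg. They were taken by gene symbol from a count table of 27594 genes, in which each symbol had its own row, and all 6 were among the 14540 genes tested. RNA sequencing was done on regulatory T (Treg) cells that were sorted as CD4+YFP+ from spleen and from peripheral lymph nodes of C57BL/6 mice aged 6 to 8 weeks. Wild-type (WT) cells came from Foxp3-YFP-Cre mice, and Foxp1 cKO cells came from Foxp1fl/fl Foxp3-YFP-Cre mice, in which the Foxp3 gene drives Cre and YFP. Both genotypes thus carried the YFP-Cre allele, and deletion was directed to Foxp3-expressing cells. Resting Treg (rTreg) cells were gated as CD44low and activated Treg (aTreg) cells as CD44high, together with a further surface marker, which gave 4 groups with 2 replicate libraries each. CD44 is the product of Cd44, so the subset difference of that transcript is the gate itself.

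Naive-like T cells enter lymph nodes from blood with the help of CCR7, the receptor for the chemokines CCL19 and CCL21 made in the T cell zone. They leave by following sphingosine 1-phosphate (S1P) into lymph and blood, for which S1PR1 is the main sensor, and CCR7 signals hold them back. The transcription factor KLF2 drives S1pr1, while CD69 removes S1PR1 from the surface. GPR183 (EBI2) senses oxysterols and positions cells at follicle borders, CD44 binds hyaluronan, and Selplg encodes PSGL-1, a selectin ligand that needs glycosylation to bind.

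All 6 genes lie on the minus strand of the mouse genome (GRCm38, GENCODE M21). Ccr7 (ENSMUSG00000037944) spans chr11:99144196-99155077 and S1pr1 (ENSMUSG00000045092) chr3:115710433-115715072. S1pr4 (ENSMUSG00000044199) spans chr10:81497747-81500132 as 1 exon, and Gpr183 (ENSMUSG00000051212) spans chr14:121952551-121965195. Gpr183 lies inside Ubac2, which is read from the opposite strand, but shares no exonic base with it in that annotation. The library kit does not mark strand, so unspliced Ubac2 reads over Gpr183 exons could be counted as Gpr183. Ubac2 had up to 1504 reads in a library, and its part in the Gpr183 counts was not tested. Cd44 (ENSMUSG00000005087) spans chr2:102811141-102901665 and has 9 annotated transcripts, which the gene count sums, and Selplg (ENSMUSG00000048163) spans chr5:113818536-113832644. No other gene shared exonic bases with any of the 6.

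Since the deleted gene encodes a forkhead transcription factor, the sequences before the start sites were searched for the forkhead core words TGTTTA and TGTTTG on both strands. Promoters were at hand for 3 of the 6 genes (RefSeq, GRCm38.p6), and the 250 bases before each start are given 5′ to 3′ on the minus strand, with either word or its reverse complement in capitals. The S1pr4 stretch is chr10:81500138-81500387, the Gpr183 stretch chr14:121965194-121965443 and the Cd44 stretch chr2:102901666-102901915.
S1pr4: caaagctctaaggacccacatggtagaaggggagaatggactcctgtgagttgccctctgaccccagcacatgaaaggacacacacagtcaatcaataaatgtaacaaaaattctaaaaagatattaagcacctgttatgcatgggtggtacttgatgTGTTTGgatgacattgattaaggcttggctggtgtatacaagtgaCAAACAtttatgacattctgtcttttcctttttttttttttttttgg
Gpr183: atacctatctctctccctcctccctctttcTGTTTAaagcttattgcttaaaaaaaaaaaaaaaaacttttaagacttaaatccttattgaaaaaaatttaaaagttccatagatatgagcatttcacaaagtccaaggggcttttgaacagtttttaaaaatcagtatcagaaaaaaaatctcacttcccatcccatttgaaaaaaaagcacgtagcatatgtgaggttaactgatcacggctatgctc
Cd44: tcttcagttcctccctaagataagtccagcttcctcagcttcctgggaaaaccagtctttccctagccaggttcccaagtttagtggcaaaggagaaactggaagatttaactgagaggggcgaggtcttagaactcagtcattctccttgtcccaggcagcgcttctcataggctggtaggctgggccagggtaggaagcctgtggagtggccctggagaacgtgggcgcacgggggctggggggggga
The S1pr4 stretch held TGTTTG at 92 to 87 bases before the start and its reverse complement CAAACA at 47 to 42 bases before it. The Gpr183 stretch held TGTTTA at 220 to 215 bases before the start, and the Cd44 stretch held neither word. Among 32851 promoter stretches of the same length, 12% held TGTTTA, 16% held TGTTTG and 25.3% held at least 1 of them, each counted on both strands. These matches are letters in a window, not measured binding, and the promoters of Ccr7, S1pr1 and Selplg were not analysed here.

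The 8 libraries held between 6373170 and 15268623 counted reads (median 12327710), and the least counted value of any of the 6 genes was 186 reads, for Cd44 in Foxp1 cKO rTreg replicate 1. Levels compared between libraries are CPM (reads of a gene scaled to a common library total) after TMM normalization, and levels compared between genes are the deposited FPKM, which divide by length. A gene was called between genotypes at an adjusted p under 0.05 with a difference of at least 1.5-fold, and between subsets at an adjusted p under 0.05 with at least 2-fold. Each adjusted p comes from the quasi-likelihood F test of edgeR, adjusted after Benjamini and Hochberg over all 14540 genes. The labels do not say whether replicates came from separate mice or pools, so each p-value judges a difference against the spread between these libraries. That spread is what remains after the replicate number is fitted as a block, with all 8 libraries in 1 fit. Replicate 1 libraries had at most 3 Xist reads and 2143 to 4356 reads of Y-linked genes, whereas replicate 2 libraries had 15098 to 21822 Xist reads and 0 Y-linked reads, so the replicate number used as a block is also a difference of sex.

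Foxp1, the targeted gene, stood at 353 and 384 CPM in WT rTreg, 342 and 338 CPM in Foxp1 cKO rTreg, 234 and 230 CPM in WT aTreg, and 126 and 102 CPM in Foxp1 cKO aTreg cells. It was called lower in Foxp1 cKO aTreg cells (log2 fold change −1.03, SE 0.0960, edgeR adjusted p = 0.00194), but the libraries labelled Foxp1 cKO rTreg did not pass the test (−0.12, SE 0.0938, adjusted p = 0.460). The counts cover the whole gene and do not resolve the deleted exons, so the Foxp1 level does not check the rTreg labels, and directions drawn from those libraries rest on the labels. The Treg markers were abundant throughout, with Foxp3 at 429 to 646 CPM. In the libraries labelled Foxp1 cKO rTreg, the Treg marker Ctla4 was called lower than in WT rTreg (log2 fold change −0.88, SE 0.0769, edgeR adjusted p = 0.000887), and Foxp3 passed the adjusted p without a 1.5-fold difference (−0.32, SE 0.0838, adjusted p = 0.0497). The summed level of 5 granulocyte markers was 0 to 0.368 CPM in WT rTreg, 5.20 to 11.8 CPM in Foxp1 cKO rTreg, 1.92 to 2.63 CPM in WT aTreg and 2.88 to 25.5 CPM in Foxp1 cKO aTreg cells, highest in Foxp1 cKO aTreg replicate 1. In WT rTreg libraries S100a8, S100a9, Mpo and Elane lay at or near 0. Jchain, a plasma cell gene at no more than 10.4 CPM in any library, was called higher in Foxp1 cKO rTreg (2.64, SE 0.545, edgeR adjusted p = 0.0221). There the 3 plasma cell markers summed to 101 to 118 CPM against 79.8 to 91.5 CPM in WT rTreg, with Xbp1 alone at 75.8 to 111 CPM over all libraries. Sdc1 went the other way without passing (−0.92, SE 1.23, adjusted p = 0.699). In aTreg cells the plasma cell sums of the genotypes overlapped (78.3 to 97.5 CPM in WT, 86.6 to 103 CPM in Foxp1 cKO). The granulocyte sums of the genotypes thus did not overlap in either subset, but in aTreg cells they nearly met (2.63 and 2.88 CPM). There only Mpo was called higher in Foxp1 cKO (log2 fold change 3.20, SE 0.668, edgeR adjusted p = 0.0394), and S100a8, S100a9 and Elane were higher without passing. The plasma cell sums were apart in rTreg cells alone. Jchain was also higher in Foxp1 cKO aTreg cells without passing (1.36, SE 0.469, adjusted p = 0.130). The part of these markers in the genotype differences was not tested. In such bulk samples, fewer cells expressing a gene and less RNA per cell cannot be told apart.

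**Figure D1:**
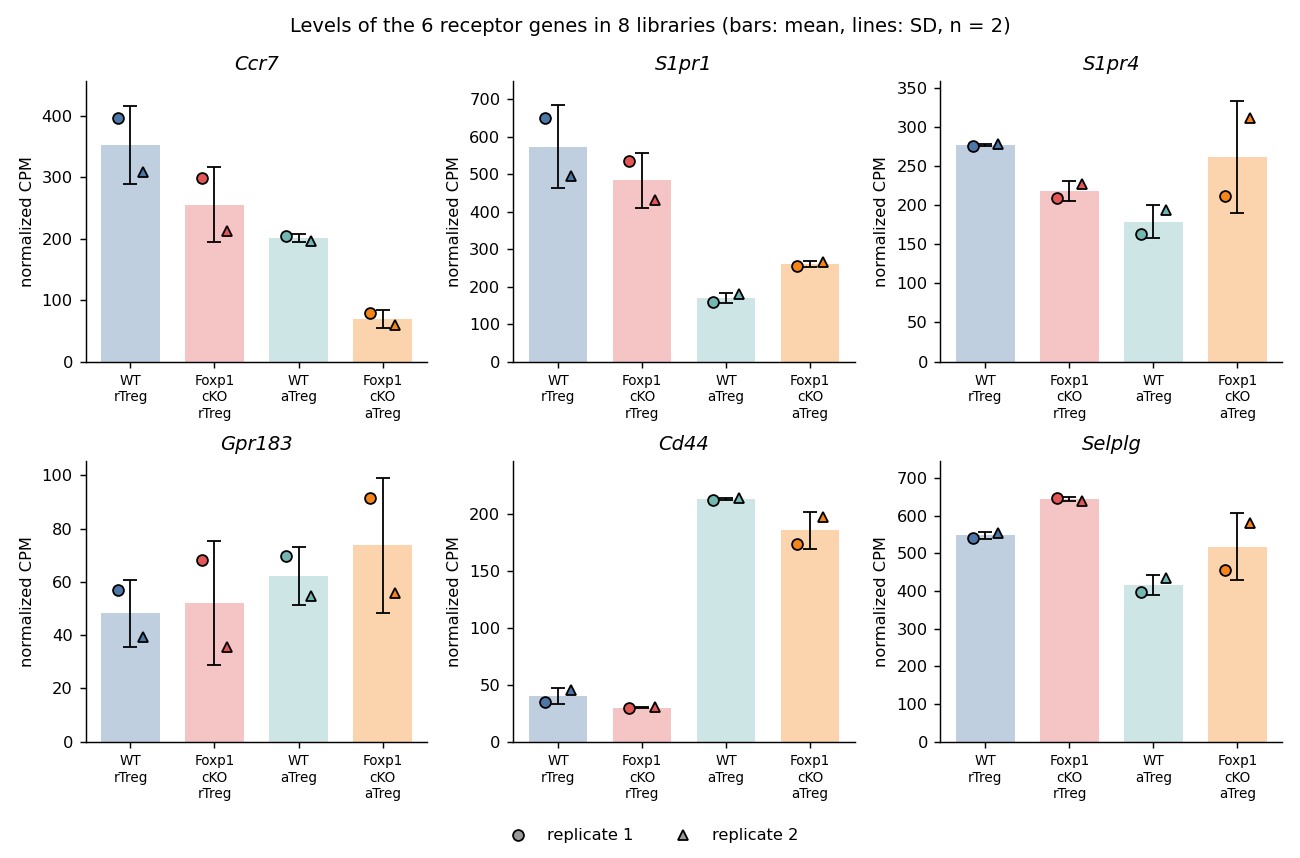
Normalized CPM (y axis) of the 6 receptor genes in the 4 groups (x axis), with bars for the mean, lines for the SD (n = 2) and a point per library. Ccr7 steps down from 352 CPM in WT rTreg to 69.3 CPM in Foxp1 cKO aTreg cells without overlap between neighbouring groups, whereas the groups of Gpr183 overlap.

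Ccr7 was highest in WT rTreg cells, followed by Foxp1 cKO rTreg, WT aTreg and Foxp1 cKO aTreg. It was at 397 and 308 CPM in WT rTreg, at 298 and 212 CPM in Foxp1 cKO rTreg, at 205 and 196 CPM in WT aTreg and at 79.6 and 59.1 CPM in Foxp1 cKO aTreg cells. No neighbouring groups in that order overlapped, although WT rTreg replicate 2 and Foxp1 cKO rTreg replicate 1 were close. S1pr1 was at 651 and 495 CPM in WT rTreg, at 536 and 431 CPM in Foxp1 cKO rTreg, at 160 and 179 CPM in WT aTreg and at 254 and 265 CPM in Foxp1 cKO aTreg cells. The rTreg groups of the main S1P sensor overlapped, both lay above the aTreg groups, and here the Foxp1 cKO aTreg libraries lay above the WT ones.

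S1pr4, a second S1P receptor of lymphoid cells, was at 277 and 278 CPM in WT rTreg, at 209 and 227 CPM in Foxp1 cKO rTreg, at 164 and 194 CPM in WT aTreg and at 212 and 312 CPM in Foxp1 cKO aTreg cells. Its lowest group was WT aTreg, which overlapped no other group, and Foxp1 cKO aTreg, whose libraries lay farthest apart, overlapped both rTreg groups. Gpr183, the oxysterol receptor, was at 57.1 and 39.3 CPM in WT rTreg, at 68.4 and 35.5 CPM in Foxp1 cKO rTreg, at 69.9 and 54.6 CPM in WT aTreg and at 91.5 and 55.8 CPM in Foxp1 cKO aTreg cells. Replicate 1 was the higher library in each group, and all neighbouring groups overlapped.

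Cd44 was at 35.1 and 45.3 CPM in WT rTreg, at 29.6 and 30.3 CPM in Foxp1 cKO rTreg, at 213 and 214 CPM in WT aTreg and at 174 and 197 CPM in Foxp1 cKO aTreg cells. The 4 groups of this gate gene did not overlap, and the Foxp1 cKO libraries were the lower ones in each subset. Selplg was at 541 and 554 CPM in WT rTreg, at 647 and 639 CPM in Foxp1 cKO rTreg, at 397 and 435 CPM in WT aTreg and at 455 and 580 CPM in Foxp1 cKO aTreg cells. Here the Foxp1 cKO libraries were the higher ones in each subset, and only Foxp1 cKO aTreg overlapped the next group, WT rTreg.

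In WT rTreg cells the FPKM level was 187 ± 40.5 (SD, n = 2, as for all FPKM means here) for S1pr1, 177 ± 35.7 for Ccr7, 127 ± 0.912 for Selplg and 115 ± 2.23 for S1pr4, against 16.3 ± 4.63 for Gpr183 and 5.86 ± 0.912 for Cd44. The libraries of S1pr1 and Ccr7 overlapped, and no other neighbours in that order did. In WT aTreg cells Ccr7 (104 ± 3.56 FPKM) and Selplg (99.8 ± 5.98 FPKM) led and overlapped, followed by S1pr4 (76.9 ± 8.88 FPKM), S1pr1 (57.1 ± 4.37 FPKM), Cd44 (32.3 ± 0.0106 FPKM) and Gpr183 (21.7 ± 3.88 FPKM). In Foxp1 cKO aTreg cells Selplg (122 ± 17.0 FPKM) and S1pr4 (110 ± 26.5 FPKM) led and overlapped, S1pr1 stood at 85.7 ± 0.177 FPKM, and Ccr7, at 35.4 ± 8.51 FPKM, stood next above Cd44 (27.5 ± 1.57 FPKM) and Gpr183 (25.3 ± 9.45 FPKM). In Foxp1 cKO rTreg cells the order of the means was S1pr1 (155 ± 26.1 FPKM), Selplg (147 ± 3.60 FPKM) and Ccr7 (126 ± 31.9 FPKM), each overlapping the next, then S1pr4 (89.0 ± 3.78 FPKM), Gpr183 (17.3 ± 7.96 FPKM) and Cd44 (4.31 ± 0.00134 FPKM).

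In WT cells, aTreg against rTreg cells asks how the trafficking receptors differ between activated and resting Treg cells. S1pr1 was called lower in aTreg cells (log2 fold change −1.74, SE 0.135, edgeR adjusted p = 8.61e-05). This was the 196th lowest value of the 14540 genes, and S1pr1 was lower in both replicate pairs (−2.02 and −1.46). Ccr7 (−0.79, SE 0.0992, adjusted p = 0.000799), S1pr4 (−0.64, SE 0.119, adjusted p = 0.00515) and Selplg (−0.40, SE 0.0862, adjusted p = 0.0103) passed the adjusted p with less than a 2-fold difference. Gpr183 was the only receptor outside the gate that was higher in WT aTreg cells (0.39, SE 0.125, adjusted p = 0.0467), also below 2-fold, and its adjusted p ran from 0.00414 to 0.561 over the alternatives. Cd44 was called higher (2.41, SE 0.0941, adjusted p = 5.82e-06), which describes the gate. Thus 1 of the 6 was called higher and 1 lower, where 9.50% of all genes tested were called higher and 2.83% lower, and all 6 passed the adjusted p alone, where 31.9% of all genes did. These counts include Cd44, whose difference the sort set. Cd44 was the gene called higher, and none of the receptors outside the gate was. The median log2 fold change was −0.52 over the 6 genes and −0.0046 over all genes. Other cell type markers differed between the subsets as well. The 4 B cell markers summed to 7.92 to 9.40 CPM in the rTreg and 18.0 to 21.2 CPM in the aTreg libraries, with Ms4a1 at no more than 4 reads in any library. They did not move together: Cd79a was lower in aTreg cells without passing (log2 fold change −0.36 in WT, edgeR adjusted p = 0.316, and −0.66 in Foxp1 cKO, adjusted p = 0.0700). The 3 NK cell markers summed to 0 to 0.650 CPM in the rTreg and 2.16 to 4.23 CPM in the aTreg libraries. Among single markers, Cd79b (log2 fold change 1.70), Pax5 (2.89), Klrb1c (5.68), Col1a1 (3.43) and S100a9 (3.98) were called higher and Pecam1 (−1.10) lower in WT aTreg cells. Apart from Pecam1, at 111 to 293 CPM over all libraries, their highest level in any library was 17.3 CPM (Cd79b). Pecam1 and Col1a1, both listed for endothelial and stromal cells, thus went opposite ways. Cdh5, Lyve1, Pdgfra and Pdpn of that list had at most 3 reads in any library. The part of these markers in the subset differences was not tested.

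In Foxp1 cKO cells, Ccr7 was called lower in aTreg than in rTreg cells (log2 fold change −1.87, SE 0.104, edgeR adjusted p = 1.22e-05), by −1.90 and −1.84 in the replicate pairs. S1pr1 passed the adjusted p with less than a 2-fold difference (−0.89, SE 0.132, adjusted p = 0.00133), as did Selplg (−0.32, SE 0.0861, adjusted p = 0.0199) and, in the other direction, Gpr183 (0.54, SE 0.125, adjusted p = 0.0111). S1pr4 did not pass, with 0.25 (SE 0.119, adjusted p = 0.134). Cd44 was again called higher (2.63, SE 0.0980, adjusted p = 2.87e-06). So 1 of the 6 was called higher and 1 lower, against 11.3% and 4.39% of all genes tested, and 5 passed the adjusted p alone, against 40.1%. These counts again include the gate gene Cd44, which was the gene called higher. S1pr1 stood near the 2-fold limit and was past it, at −1.01, when Foxp1 cKO rTreg replicate 2 or Foxp1 cKO aTreg replicate 2 was left out.

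Between the genotypes in rTreg cells, none of the 6 receptors met the 1.5-fold rule. Ccr7 (log2 fold change −0.47, SE 0.0989, edgeR adjusted p = 0.0228) and Cd44 (−0.43, SE 0.0999, adjusted p = 0.0339) passed the adjusted p, lower in the libraries labelled Foxp1 cKO in both replicate pairs. S1pr4 (−0.35, SE 0.119, adjusted p = 0.0970), S1pr1 (−0.24, SE 0.131, adjusted p = 0.272) and Selplg (0.23, SE 0.0860, adjusted p = 0.122) did not pass. Gpr183 had a difference of 0.059 (SE 0.128, adjusted p = 0.811), and its replicate pairs went opposite ways (0.26 and −0.14). The counts were 0 of 6 called in either direction, where 2.90% of all genes tested were called higher and 2.70% lower, and 2 of 6 by the adjusted p alone, where 12.0% of all genes passed. Without the replicate block, edgeR's adjusted p rose to 0.314 for Ccr7 and 0.173 for Cd44. The median log2 fold change was −0.30 over the 6 genes and 0.0029 over all genes.

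In aTreg cells the genotypes differed in opposite directions for the entry and exit receptors. Ccr7 was called lower in Foxp1 cKO aTreg cells, 2.94-fold (log2 fold change −1.56, SE 0.103, edgeR adjusted p = 0.000598), the 190th lowest of 14540 genes and by −1.36 and −1.73 in the replicate pairs. S1pr1 was called higher, 1.52-fold (log2 fold change 0.61, SE 0.133, adjusted p = 0.0365; pairs 0.67 and 0.56). S1pr4 passed the adjusted p at 1.45-fold, just under the fold rule (0.54, SE 0.119, adjusted p = 0.0384; pairs 0.37 and 0.68). Selplg (0.31, SE 0.0861, adjusted p = 0.0770), Gpr183 (0.21, SE 0.122, adjusted p = 0.362) and Cd44 (−0.21, SE 0.0865, adjusted p = 0.206) did not pass. Of the 6 receptors, 1 was called higher and 1 lower, where 2.37% of all genes tested were called higher and 1.66% lower, and 3 passed the adjusted p alone, where 6.88% of all genes did.

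The Ccr7 call held in all 17 alternative settings, with log2 fold changes of −1.73 to −1.37 and adjusted p-values of 1.37e-34 to 0.0410, and without Foxp1 cKO aTreg replicate 1, the library with the most granulocyte marker reads, it was −1.61 (edgeR adjusted p = 0.00581). The S1pr1 call was lost in 8 of the 17, among them the fit without the replicate block (0.61, adjusted p = 0.178), without WT aTreg replicate 1 (0.43, adjusted p = 0.126), without Foxp1 cKO aTreg replicate 1 (0.73, adjusted p = 0.0631) or 2 (0.48, adjusted p = 0.292), and without Foxp1 cKO rTreg replicate 1 (0.61, adjusted p = 0.0619) or 2 (0.61, adjusted p = 0.0618). S1pr4 was called (0.75, adjusted p = 0.0152) without Foxp1 cKO aTreg replicate 1, its lower library, and lay at 0.31 (adjusted p = 0.230) without Foxp1 cKO aTreg replicate 2.

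**Figure D2:**
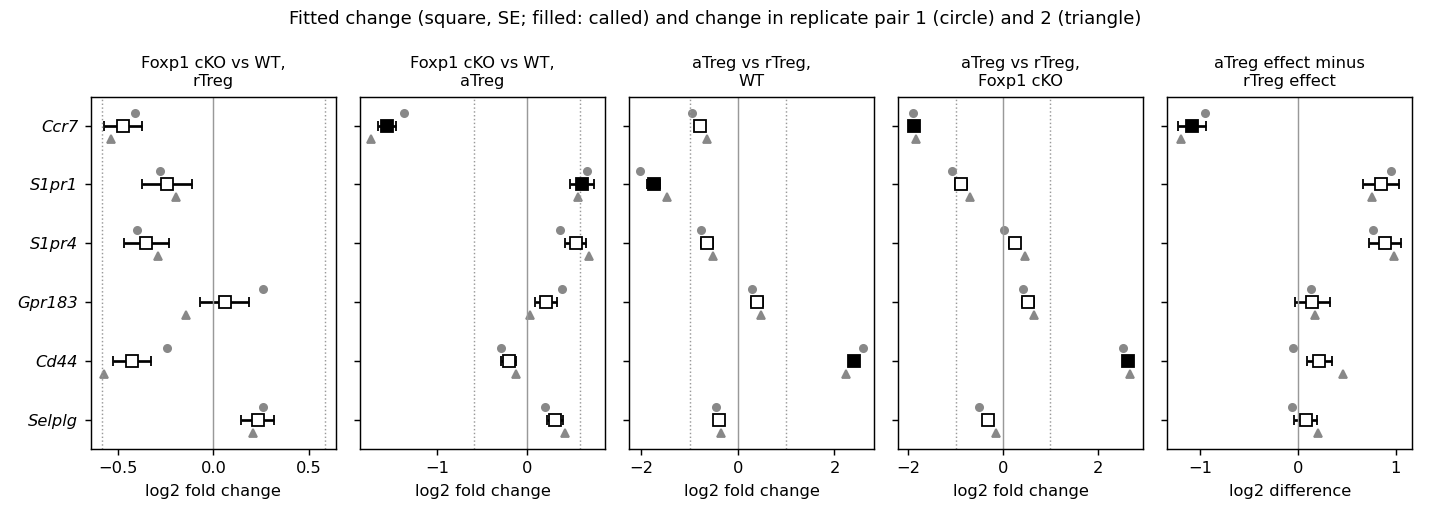
Log2 fold change (x axis) of the 6 receptor genes (y axis) in 4 comparisons and, at the right, the difference between the genotype effects, as fitted (squares, with SE, filled where called) and in replicate pairs 1 (circles) and 2 (triangles). Dotted lines mark the fold rule. Ccr7 lies at −1.56 between genotypes in aTreg cells, while S1pr1 lies at 0.61 and S1pr4 at 0.54.

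Whether the genotype effect differed between the subsets was tested as an interaction in the same fit. The Ccr7 effect was more negative in aTreg than in rTreg cells by −1.08 on the log2 scale (SE 0.142, edgeR adjusted p = 0.0316), and by −0.95 and −1.19 in the replicate pairs. S1pr4 (0.89, SE 0.168, adjusted p = 0.0712) and S1pr1 (0.85, SE 0.186, adjusted p = 0.106) differed the other way, their log2 fold changes being negative in rTreg and positive in aTreg cells in both replicate pairs, but neither passed the adjusted p. Cd44 (0.22, SE 0.132, adjusted p = 0.546), Gpr183 (0.15, SE 0.177, adjusted p = 0.804) and Selplg (0.077, SE 0.122, adjusted p = 0.860) did not pass. So 0 of the 6 were called with a more positive effect in aTreg cells and 1 with a more negative one, where 0.186% and 0.144% of all genes tested were. The Ccr7 interaction was lost in 9 of 16 alternatives, with an adjusted p of 0.530 without the replicate block. It was lost without either WT rTreg library, either Foxp1 cKO rTreg library or either Foxp1 cKO aTreg library (adjusted p = 0.0630 to 0.215), at values of −1.18 to −0.97. Foxp1 itself had an interaction of −0.92 (SE 0.134, adjusted p = 0.0477).

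The balance of the exit and entry receptor transcripts within a library follows from these levels, and no test was made of it. The ratio of S1pr1 to Ccr7 FPKM was 1.07 and 1.04 in WT rTreg, 1.17 and 1.32 in Foxp1 cKO rTreg, 0.507 and 0.593 in WT aTreg, and 2.07 and 2.91 in Foxp1 cKO aTreg libraries. The WT aTreg libraries had the lowest ratios and the Foxp1 cKO aTreg libraries the highest, with no overlap between any groups. The ratio of S1pr1 to S1pr4 FPKM separated the subsets instead: it was 1.39 to 2.01 in the 4 rTreg libraries and 0.664 to 0.940 in the 4 aTreg libraries. S1pr1 made up 64.6% and 57.9% of the summed FPKM of S1pr1 to S1pr5 in WT rTreg, 66.5% and 59.5% in Foxp1 cKO rTreg, 42.3% and 40.8% in WT aTreg, and 47.6% and 39.1% in Foxp1 cKO aTreg libraries. The share overlapped between genotypes in each subset, and S1pr4 made up most of the remainder (50.6% to 58.8% of the sum in the aTreg libraries).

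**Figure D3:**
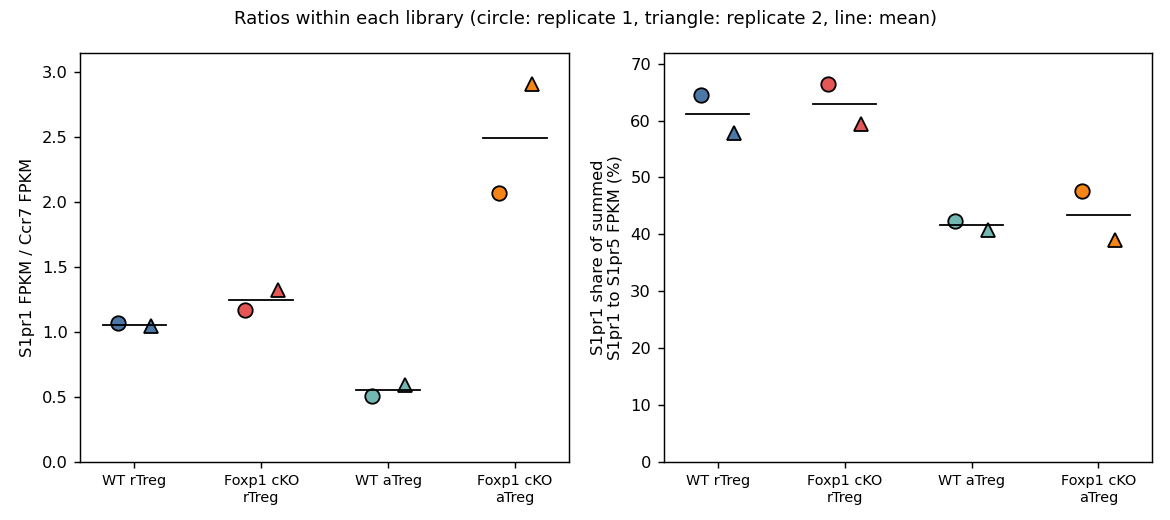
Ratio of S1pr1 to Ccr7 FPKM (left y axis) and share of S1pr1 in the summed FPKM of the S1P receptors in percent (right y axis) for each library of the 4 groups (x axis), with a line at the mean. The ratio is 0.550 in WT aTreg and 2.49 in Foxp1 cKO aTreg cells on average, while the mean share is 41.6% and 43.3% in those groups.

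The genes whose pattern over the 8 libraries was most like each receptor were found by the root mean square difference of their centred log2 CPM, where a smaller value is more alike. For S1pr1 they were Klf2 (0.180), a driver of S1pr1 transcription, Bcl2l11 (0.201), which encodes the pro-apoptotic protein BIM, and Sdc3 (0.215), a syndecan, against a median of 0.756 over all genes tested. For Ccr7 they were Mmp15 (0.217), a membrane-bound matrix metalloproteinase, Fggy (0.232), a carbohydrate kinase, and Gabrr2 (0.238), a GABA receptor subunit, against a median of 0.933. For S1pr4 they were Emp3 (0.123), an epithelial membrane protein family member, Flna (0.126), the actin crosslinker filamin A, and Cry1 (0.133), a circadian repressor, against a median of 0.410. For Cd44 they were Nsmf (0.126), Kif13a (0.174), a kinesin, and Gdpd5 (0.183), against a median of 1.31. For Gpr183 they were Qrfp (0.120), a neuropeptide precursor, Haghl (0.141) and Gm5527 (0.146), against a median of 0.515, and for Selplg they were Alkbh4 (0.0830), Hsd11b1 (0.0844), a glucocorticoid-activating enzyme, and Nsd3 (0.0905), a histone methyltransferase, against a median of 0.374. Among the 6 receptors themselves the closest pair was S1pr4 and Selplg (0.244) and the farthest was Ccr7 and Cd44 (2.00), while S1pr1 and Ccr7 differed by 0.781.

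Around the 6 receptors, 46 other genes of the same processes were listed: the S1P system, other homing receptors and chemokine handling, oxysterol enzymes, glycosylation of selectin ligands, and hyaluronan, membrane linkers and motility. Of these, 34 were tested, 7 had too few reads and 5 were not analysed here. Between the genotypes, 0 of the 34 were called higher and 2 (5.88%) lower in rTreg cells, against 2.90% and 2.70% of all genes tested. In aTreg cells 0 were called by edgeR, limma-voom or DESeq2, against 2.37% higher and 1.66% lower of all genes in edgeR, and 8 (23.5%) had an unadjusted p under 0.05, against 23.3% of all genes. In the interaction 0 were called by any of the 3 tools, and 11 (32.4%) had an unadjusted p under 0.05 in edgeR, against 12.8% of all genes. The median log2 fold change of the 34 was −0.069 in rTreg and 0.044 in aTreg cells, against 0.0029 and 0.0018 over all genes. The 2 genes called between genotypes, Cxcr4 and Cxcr5, are chemokine receptors.

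Klf2, the driver of S1pr1 transcription, was at 724 and 567 CPM in WT rTreg, at 668 and 431 CPM in Foxp1 cKO rTreg, at 200 and 219 CPM in WT aTreg and at 215 and 277 CPM in Foxp1 cKO aTreg cells. Its genotype groups overlapped in both subsets, and the differences did not pass the test in rTreg (log2 fold change −0.24, SE 0.205, edgeR adjusted p = 0.490) or aTreg cells (0.24, SE 0.207, adjusted p = 0.548). It was called lower in aTreg than in rTreg cells in WT (−1.61, SE 0.210, adjusted p = 0.000992) and Foxp1 cKO mice (−1.13, SE 0.209, adjusted p = 0.00381).

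Cxcr4, the receptor for CXCL12, was at 211 and 104 CPM in WT rTreg and at 103 and 36.9 CPM in Foxp1 cKO rTreg cells, with replicate 1 the higher library in each. It was called lower in the libraries labelled Foxp1 cKO rTreg (log2 fold change −1.24, SE 0.221, edgeR adjusted p = 0.0131) and had a difference of 0.039 in aTreg cells (SE 0.211, adjusted p = 0.938), while its interaction did not pass (1.28, SE 0.305, adjusted p = 0.133). The Cxcr4 call in rTreg cells was lost in 4 of 17 alternatives: without the replicate block (−1.19, adjusted p = 0.367), without WT rTreg replicate 1 (−1.24, adjusted p = 0.0682) or 2 (−1.27, adjusted p = 0.0706), and without Foxp1 cKO rTreg replicate 2 (−0.96, adjusted p = 0.131). Cxcr5, which guides cells toward B cell follicles, was at 9.49 and 8.80 CPM in WT rTreg and at 4.14 and 3.25 CPM in Foxp1 cKO rTreg cells. It was called lower there (−1.32, SE 0.135, adjusted p = 0.00176), also in all 17 alternatives, and in aTreg cells, where it stood at 83.8 and 69.5 CPM in WT and 57.7 and 45.1 CPM in Foxp1 cKO libraries, it passed the adjusted p just under the 1.5-fold rule (−0.58, SE 0.0802, adjusted p = 0.00821).

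**Figure D4:**
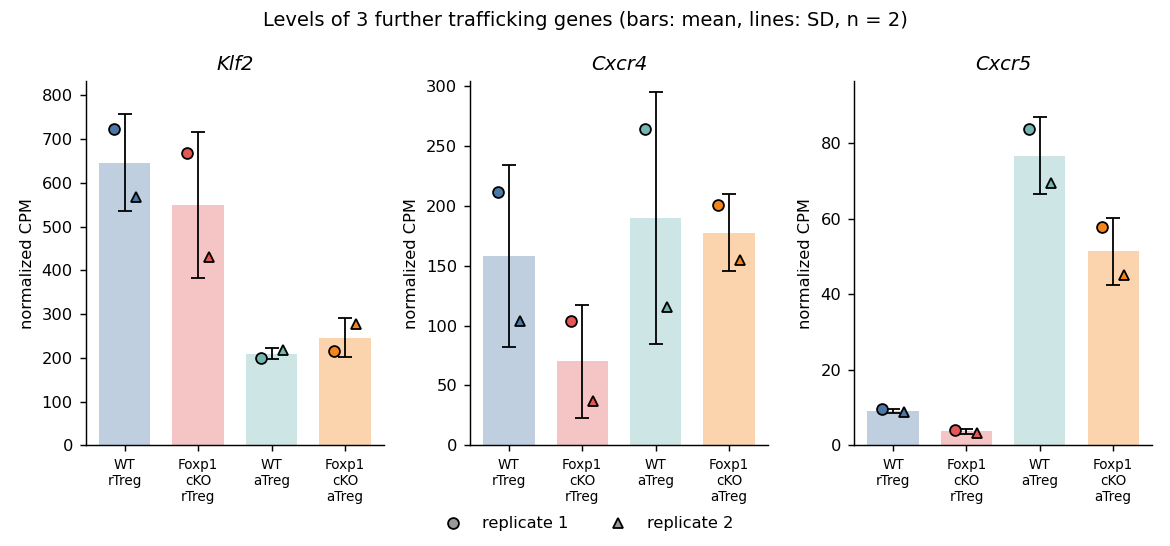
Normalized CPM (y axis) of Klf2, Cxcr4 and Cxcr5 in the 4 groups (x axis), with bars for the mean, lines for the SD (n = 2) and a point per library. The Foxp1 cKO rTreg libraries of Cxcr5 lie at 4.14 and 3.25 CPM, below all other libraries, and the Klf2 libraries of the genotypes overlap in each subset.

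Between the subsets, 4 of the 34 (11.8%) were called higher and 1 (2.94%) lower in WT aTreg cells, near the 9.50% and 2.83% of all genes tested. In Foxp1 cKO aTreg cells 6 (17.6%) were called higher and 2 (5.88%) lower, against 11.3% and 4.39% of all genes. The genes named in the rest of this paragraph, other than Klf2, Cxcr4 and Cxcr5, were named after their values were seen. Those called higher in WT aTreg cells were S1pr2 (log2 fold change 1.18, SE 0.121), an S1P receptor that restrains migration, Cxcr5 (3.06, SE 0.0952), Fut7 (3.43, SE 0.361) and Gcnt1 (5.66, SE 0.308), which make the sugar structures that let PSGL-1 bind selectins. In Foxp1 cKO cells all of these were also called higher, with S1pr2 at 1.81 (SE 0.127), Cxcr5 at 3.80 (SE 0.115), Fut7 at 2.90 (SE 0.307) and Gcnt1 at 5.22 (SE 0.321), together with Cxcr4 (1.52, SE 0.222) and Hyal2 (1.18, SE 0.188), a hyaluronidase. Klf2 was called lower in both genotypes, and St3gal6, a sialyltransferase, in Foxp1 cKO cells (−1.30, SE 0.429). The St3gal6 call was lost in 8 of 15 alternatives, among them the fits without each single rTreg or Foxp1 cKO aTreg library (adjusted p = 0.0552 to 0.334), and that of Klf2 in Foxp1 cKO cells fell below 2-fold without Foxp1 cKO rTreg replicate 1 (−0.77) or Foxp1 cKO aTreg replicate 1 (−0.81). Without the replicate block the Cxcr4 call between subsets was also lost (1.36, adjusted p = 0.144). Gcnt1 had 6 to 9 reads in each rTreg library and 290 to 468 in each aTreg library, while Selplg, which encodes a protein that this enzyme modifies, passed the adjusted p as lower in aTreg cells of each genotype. Of the S1P system, S1pr3, Sphk1, an S1P-producing kinase, and Spns2, an S1P exporter of endothelium, had at most 2 reads in any library.

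**Figure D5:**
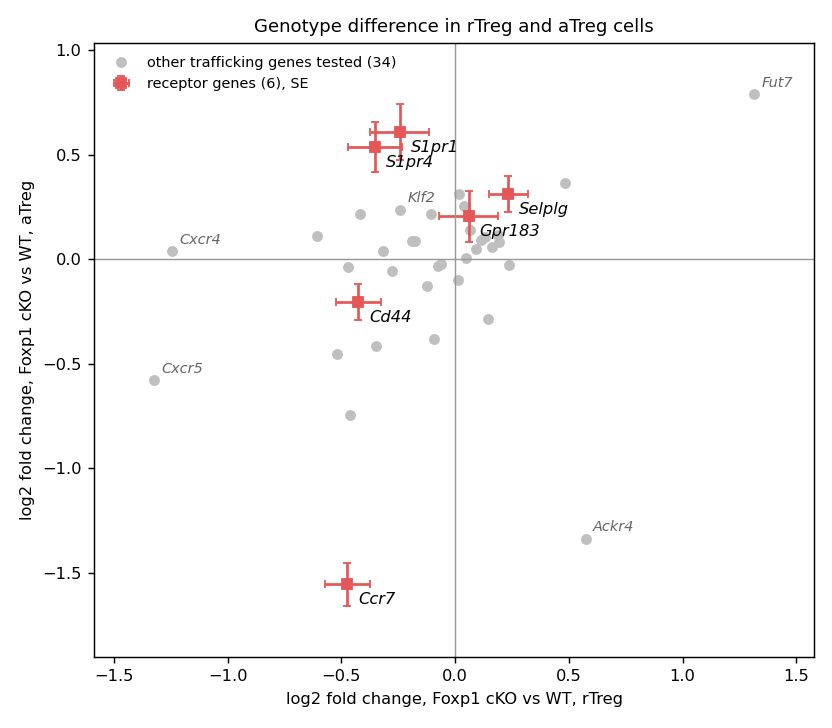
Log2 fold change between genotypes in rTreg cells (x axis) against that in aTreg cells (y axis) for the 6 receptor genes (squares, with SE) and the 34 other trafficking genes tested (grey points, with some named). Ccr7 lies lowest, at −1.56 in aTreg cells, while S1pr1 and S1pr4 lie to the left of 0 in rTreg and above 0 in aTreg cells.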

How the data were processed

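RNA was sequenced from 8 libraries, 2 in each of 4 groups (WT and Foxp1 cKO rTreg and aTreg cells). The authors aligned reads to mm10 with HISAT2 2.0.5 and counted them on genes with HTSeq, according to the submitters' processing notes; the study's methods also name read trimming and removal of duplicates. The library kit does not mark strand. The deposited counts give the whole reads that fell on each Ensembl gene, and the deposited FPKM divide them by library total and gene length, so they add no measurement. All columns were mapped to samples by name.

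The test of the counts used edgeR 4.0.16 under R 4.3.3 (glmQLFit, glmQLFTest, Benjamini-Hochberg adjustment): all 8 libraries in 1 fit, with group means and a block for the replicate number, TMM normalization, and filterByExpr with a minimum count of 10, which kept 14540 genes. The SE is the absolute log2 fold change divided by the square root of F. The thresholds and the pairing follow the study's methods, which name paired samples and a batch effect. Deviations of same-numbered libraries from their group means correlated at 0.355 to 0.597 across genes. Alternatives used limma 3.58.1 and DESeq2 1.42.0. The fits were tested on simulated data. Intervals and levels cover these libraries alone, and reads carry no molecular identifiers.

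Of the 27594 gene IDs, 27479 are in GENCODE M21, from which coordinates were taken. The authors' fold changes and p-values were not used. The 6 genes, the lists and the rule for named genes were chosen with earlier results of these data known. The rule names the 6 receptors, Foxp1, the listed genes called between genotypes or in the interaction, Klf2, the S1P genes at or under 3 reads everywhere, and the 3 genes most alike to each receptor; 2 further listed genes are not reported here.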

Additional observations from a re-analysis of the deposited data

Results flagged for a closer look

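The genotype effect on Ccr7, the chemokine receptor for entry into lymph nodes, differed between the subsets by the interaction test. It was −0.47 in rTreg cells (SE 0.0989) and −1.56 in aTreg cells (SE 0.103) on the log2 scale, a difference of −1.08 (SE 0.142, edgeR's quasi-likelihood test, Benjamini-Hochberg adjusted p = 0.0316), with −0.95 and −1.19 in the replicate pairs. The call was lost in 9 of 16 alternatives, among them the fit without the replicate block (edgeR adjusted p = 0.530). It was also lost without either WT rTreg library, either Foxp1 cKO rTreg library or either Foxp1 cKO aTreg library. Foxp1 reads differed between genotypes in aTreg cells and did not pass the test in rTreg cells. Granulocyte marker reads were highest in Foxp1 cKO aTreg replicate 1, without which the Ccr7 difference was −1.14 and was no longer called. The part of either in the difference was not tested.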

How the results depend on the processing

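Over 17 alternatives (16 for the interaction), 504 values were recomputed for the 6 receptors, of which 473 kept their direction and call, 17 lost a call, 8 gained one and 6 changed sign. Those 6 were uncalled values: Gpr183 in rTreg cells between genotypes (−0.014 without WT rTreg replicate 1, −0.15 without Foxp1 cKO rTreg replicate 1), the Gpr183 interaction (−0.047 without Foxp1 cKO rTreg replicate 2, −0.026 without WT aTreg replicate 1) and the Selplg interaction (−0.016 without Foxp1 cKO rTreg replicate 2, −0.080 without Foxp1 cKO aTreg replicate 2). Their highest values were 0.26, 0.36 and 0.23. Without the replicate block, the receptors called fell to 1 between genotypes in aTreg cells and 0 in the interaction, the trafficking genes called in rTreg cells to 1, and all genes called to 266 between genotypes in rTreg cells, 77 in aTreg cells and 0 in the interaction. On log2 FPKM plus 1 with limma, 1 receptor was called between genotypes in aTreg cells and 0 in the interaction, and the calls over all genes were 366 in rTreg and 129 in aTreg cells between genotypes, 787 in WT and 1087 in Foxp1 cKO cells between subsets and 2 in the interaction. On log2 FPKM plus 0.1, the receptors gave 1 and 0 and all genes 446, 107, 1027, 1393 and 2. With no filter on low counts, all genes called were 1035 between genotypes in aTreg cells and 573 in the interaction, with 1 and 3 trafficking genes, and 3 receptors in the interaction. DESeq2 called 280 genes and 3 receptors in the interaction, and a fit of the aTreg libraries alone called 349 genes and 1 trafficking gene between genotypes. Leaving out 1 library gave, between genotypes, 214 to 861 genes and 1 to 2 trafficking genes in rTreg cells, and 117 to 537 genes, 0 to 1 trafficking genes and 1 to 2 receptors in aTreg cells. It gave 1 to 167 genes, 0 to 1 trafficking genes and 0 to 1 receptors in the interaction, and 1723 to 2391 genes between subsets in Foxp1 cKO cells. A library left out leaves its group with 1 library, assumed to vary like the others. The causes were not tested. Median-of-ratios scaling moved the median of all genes by less than 0.1 on the log2 scale.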
